A study of Homo sapiens with 8 samples.

Results

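KDM4A, DIP2A and RAP2A are 3 genes, out of 20037 protein-coding genes placed on the assembled nuclear chromosomes by RefSeq (GRCh38.p14), that lie beside some of the strongest RFX7 binding sites in HCT116 cells. They were chosen by a measured value: each lies close to 1 of the 10 entries with the highest fold enrichment in the Nutlin-3a peak list, and none is among the well-known tumour suppressor targets of RFX7. Every entry of either peak list with its summit within 50 kb of either end of these genes was then taken, which gave 6 entries, 1 per gene and list. The fold enrichments of these entries in the Nutlin-3a list are therefore a description and are not tested. RFX7 binding was measured by ChIP-seq, the sequencing of DNA fragments recovered together with a protein by an antibody against it. HCT116 is a human colorectal carcinoma line with functional p53. The cells received 10 µM Nutlin-3a, which stabilises p53 by blocking MDM2, or the solvent DMSO alone, and were harvested after 24 h. There were 2 RFX7 ChIP and 2 input samples (chromatin without immunoprecipitation) for either treatment. The data used here are 1 peak list per treatment, so replicate error is unknown, and differences between the lists are given without a test. The depth of each sample is unknown.

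RFX7 belongs to the RFX transcription factors, which share a winged-helix DNA-binding domain. Their DNA element is the X-box, an imperfect palindrome of 2 arms that face each other. Another common promoter element, the CCAAT box, is bound by the trimeric factor NF-Y, which acts beside RFX proteins at MHC class II promoters. KDM4A is a Jumonji-domain demethylase that removes methyl groups from lysines of histone H3. DIP2A is a member of the disco-interacting protein family and has been described as a receptor for the secreted glycoprotein FSTL1. RAP2A is a small GTPase of the RAS superfamily that acts through kinases such as TNIK, MINK1 and MAP4K4.

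The promoters of KDM4A and DIP2A lay under the RFX7 entries of both lists, so their sequences are shown. The stretches are the 250 bases before the annotated start of each gene, from RefSeq, on the plus strand, at chr1:43649899-43650148 for KDM4A and chr21:46458641-46458890 for DIP2A. The only summit within these bases is that of DIP2A in the Nutlin-3a list. The KDM4A summits lay 263 bp (DMSO) and 315 bp (Nutlin-3a) upstream of the start, and the DIP2A summit of the DMSO list 326 bp. The bases at these other summits were not searched. Capitals mark matches, on either strand, to the CCAAT box and to 3 forms of an X-box arm that are described further on.
KDM4A: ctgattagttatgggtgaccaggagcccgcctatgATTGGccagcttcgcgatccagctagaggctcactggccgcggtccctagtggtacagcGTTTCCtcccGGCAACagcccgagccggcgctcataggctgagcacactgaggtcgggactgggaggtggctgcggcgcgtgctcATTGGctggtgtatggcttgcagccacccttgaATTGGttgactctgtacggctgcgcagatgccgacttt
DIP2A: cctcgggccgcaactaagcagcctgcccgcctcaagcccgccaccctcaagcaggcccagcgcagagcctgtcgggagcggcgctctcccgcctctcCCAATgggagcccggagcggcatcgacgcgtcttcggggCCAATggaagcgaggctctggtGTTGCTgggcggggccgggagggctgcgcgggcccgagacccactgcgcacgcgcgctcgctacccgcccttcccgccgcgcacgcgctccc
The entries at RAP2A ended upstream of its promoter window, so that window is described by counts alone.

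KDM4A carried 1 entry in each list, directly upstream of its start. The gene lies on the plus strand at chr1:43650149-43705518. The DMSO entry covered chr1:43649746-43650177, or 432 bp, and reached 28 bp past the gene start. The Nutlin-3a entry covered chr1:43649682-43650136, or 455 bp, and ended 13 bp before the start. The summits, the positions of highest signal within an entry, lay 263 bp (DMSO) and 315 bp (Nutlin-3a) upstream of the start. Both entries were therefore promoter-proximal, and their summits were 52 bp apart. The authors' fold enrichment, the ChIP signal over the local background, was 15.1 under DMSO and 23.7 under Nutlin-3a, and it ranked 8 of 505 and 8 of 622. The −log10 q was 83.4 (DMSO) and 157 (Nutlin-3a). By fold enrichment KDM4A thus stood near the top of the DMSO list too, although it ranked 73 there by −log10 q. The rule of choice used the Nutlin-3a list alone, but the genes were chosen with earlier results of these data known.

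DIP2A carried 1 entry in each list, and both ran across the gene start. The gene lies on the plus strand at chr21:46458891-46583871. The DMSO entry covered chr21:46458381-46459062, or 682 bp, and the Nutlin-3a entry chr21:46458486-46459132, or 647 bp. They extended 171 bp and 241 bp past the start into the gene. The summits lay 326 bp (DMSO) and 90 bp (Nutlin-3a) upstream of the start, which put them 236 bp apart. The fold enrichment was 6.46 under DMSO (rank 51 of 505) and 27.5 under Nutlin-3a (rank 5 of 622). The −log10 q was 110 (DMSO) and 235 (Nutlin-3a). DIP2A was the member whose place by fold enrichment differed most between the lists, while its −log10 q was the highest of the 3 genes in both.

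RAP2A differed in where its entries lay. The gene is on the plus strand at chr13:97434169-97469128. The DMSO entry covered chr13:97432975-97433500, or 526 bp, and the Nutlin-3a entry chr13:97432759-97433488, or 730 bp. These entries ended 669 bp and 681 bp before the gene start, and their summits lay 1001 bp and 1165 bp upstream of it. Neither entry touched the promoter window of 250 bp before to 50 bp after the start. The fold enrichment was 12.7 under DMSO (rank 11 of 505) and 21.8 under Nutlin-3a (rank 10 of 622). The −log10 q was 75.9 (DMSO) and 156 (Nutlin-3a). RAP2A was also the last gene inside the choice: its entry stood at rank 10, and the entry at rank 11, nearest to TOB2, had a fold enrichment of 20.9.

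**Figure D1:**
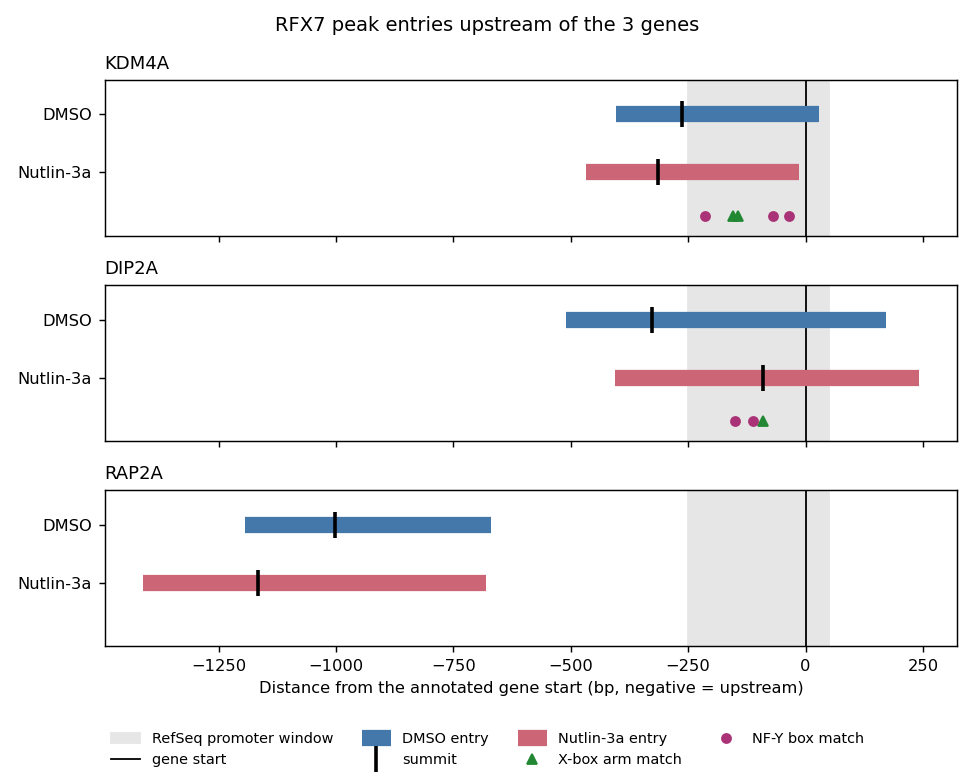
Position of the RFX7 peak entries at KDM4A, DIP2A and RAP2A on the x axis (distance from the annotated gene start in bp, negative upstream), with 1 row per list. Bars span the entries and black ticks mark the summits, grey shading is the RefSeq promoter window, and triangles and dots mark matches to X-box arms and to the CCAAT box (NF-Y box). The RAP2A entries end 669 bp and 681 bp before the start, whereas the DIP2A entries run across it.

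All 3 DMSO entries and all 3 Nutlin-3a entries overlapped their counterpart in the other list. Over all entries, 74.3% (DMSO) and 56.9% (Nutlin-3a) shared at least 1 bp with the other list. With 3 genes picked from the strongest entries, this count says nothing of its own about them. The overlap covered 391 bp at KDM4A, which is 90.5% of the DMSO and 85.9% of the Nutlin-3a entry. At DIP2A it covered 577 bp, or 84.6% and 89.2%. At RAP2A it covered 514 bp, or 97.7% and 70.4%, since the Nutlin-3a entry there was 204 bp wider and extended away from the gene. The DIP2A entry was narrower in the Nutlin-3a list by 35 bp, and the KDM4A entry was wider by 23 bp. All 3 pairs overlapped by over 50% of both entries, but only the KDM4A summits lay within 100 bp of each other. Over the 352 pairs of mutually best-overlapping entries, the median distance between summits was 14 bp. It was 38 bp in the 197 pairs, the 3 members among them, in which at least 1 entry lacked a whole-number pileup (explained next). Of these 197 pairs, 46.7% were as far apart as the pair at KDM4A or farther, 21.8% as that at RAP2A and 14.2% as that at DIP2A.

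The summit positions and fold enrichments of most of these entries carry a caveat from the way each list was made. Under the formulas of MACS2, the peak caller named in the submitters' processing notes, a fold enrichment and a −log10 p from the same position give a whole-number pileup of reads. This held for 1 of the 6 entries, against 79.4% of all DMSO and 64.1% of all Nutlin-3a entries (tolerance 0.02). The exception was DIP2A in the Nutlin-3a list, with a pileup of 222 over a background of 7.11. The other 5 entries gave no whole number, so their columns need not describe 1 position. Across all such entries the median summit position was 28.2% of the entry width under DMSO and 27.5% under Nutlin-3a. It was 48.8% and 47.2% for whole-number entries. The members followed the same split: the DIP2A summit of the Nutlin-3a list sat at 48.7% of the width, and the other 5 sat between 27.0% (DIP2A, DMSO) and 36.7% (RAP2A, DMSO). Taken by the entry midpoint, KDM4A lay 188 bp (DMSO) and 240 bp (Nutlin-3a) upstream of its start, DIP2A 170 bp and 82 bp, and RAP2A 932 bp and 1046 bp. All 6 positions stayed upstream of the gene start by either measure. Whether the low DMSO fold enrichment at DIP2A belongs to its summit was not tested.

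Within each list KDM4A and RAP2A stood high by fold enrichment and less so by −log10 q, as did DIP2A in the Nutlin-3a list. In the DMSO list KDM4A ranked 8 by fold enrichment but 73 by −log10 q, and RAP2A ranked 11 and 84. In the Nutlin-3a list KDM4A ranked 8 and 40, and RAP2A 10 and 42. DIP2A ranked 51 and 53 (DMSO) and 5 and 14 (Nutlin-3a). Of the 72 DMSO entries with a higher −log10 q than KDM4A, 65 had a lower fold enrichment. For RAP2A the numbers were 74 of 83. The corresponding numbers for KDM4A and RAP2A in the Nutlin-3a list were 32 of 39 and 32 of 41. Entries of low fold and high −log10 q thus made up most of those ranked above both genes by −log10 q. Against the median of their list, 2.86 (DMSO) and 3.28 (Nutlin-3a), KDM4A was 5.27 (DMSO) and 7.23 (Nutlin-3a) times as high, RAP2A 4.44 and 6.65 times, and DIP2A 2.26 and 8.38 times. The entries were also wide, at 2.50 to 4.52 times the median width of their list. Width above the median was not particular to them. The entries at VCP and TOB2, genes of similar rank compared further on, spanned 281 and 419 bp (DMSO) and 340 and 561 bp (Nutlin-3a). The medians were 151 bp and 182 bp.

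**Figure D2:**
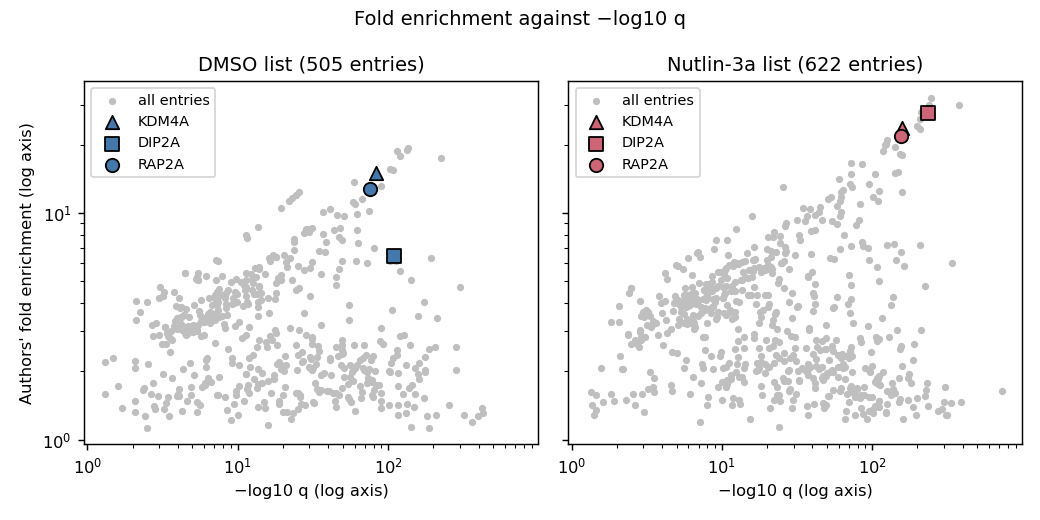
Authors' fold enrichment (y, log axis) against −log10 q (x, log axis) for all 505 DMSO and 622 Nutlin-3a entries in grey, with the entries at KDM4A, DIP2A and RAP2A marked. KDM4A and RAP2A lie on the upper edge in both lists, while DIP2A lies below it in the DMSO list, at a fold enrichment of 6.46.

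Each member entry stood alone. The nearest other entry of the same list was 2.48 Mb away at KDM4A in both lists, 12.9 Mb (DMSO) and 4.22 Mb (Nutlin-3a) away at DIP2A, and 2.55 Mb and 11.3 Mb away at RAP2A. Over all entries, the median distance to the next one was 3.21 kb (DMSO) and 4.27 kb (Nutlin-3a). These medians include many entries in dense clusters far from gene starts, so they do not show that isolation is particular to the 3 genes. No entry was therefore near the 50 kb limit of the choice, and distances of 5, 10 or 100 kb returned the same number of entries. The far ends of the 3 genes, 55.4 kb (KDM4A), 125 kb (DIP2A) and 34.96 kb (RAP2A) downstream of their starts, had no entry within 50 kb other than those upstream of the starts.

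All 6 member summits lay upstream of the gene start, which the strand given with the RefSeq promoters made it possible to tell from the gene end. Among all entries with a summit within 1500 bp of a protein-coding start, 62 of 102 DMSO summits (60.8%) and 90 of 144 Nutlin-3a summits (62.5%) lay upstream. The median position of these summits was 77.5 bp and 75.5 bp upstream. DIP2A in the Nutlin-3a list was close to that median, KDM4A lay farther upstream, and RAP2A lay in the sparse part of the distribution beyond 1 kb. Chromosome 8 was not used for starts and promoters, which left 14 DMSO and 15 Nutlin-3a entries out of these counts.

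**Figure D3:**
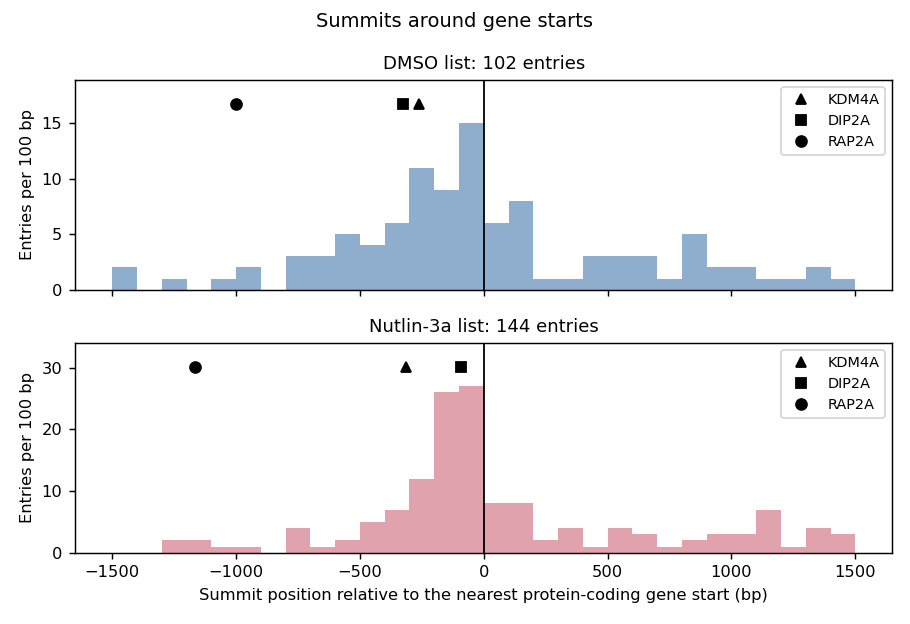
Number of entries per 100 bp (y) by summit position relative to the nearest protein-coding gene start (x, bp, negative upstream), within 1500 bp, for 102 DMSO and 144 Nutlin-3a entries. Markers above the bars give the 3 genes, of which RAP2A lies farthest out, at 1001 bp and 1165 bp upstream.

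The gene neighbourhoods were checked for other candidates. At DIP2A the entries also covered the start of a non-coding RNA gene, LOC124905046, which is transcribed away from DIP2A on the minus strand and starts 178 bp upstream of it. The Nutlin-3a summit lay between both starts, 88 bp from the start of LOC124905046 and 90 bp from that of DIP2A, and the DMSO summit lay inside LOC124905046. The entries cannot be assigned to 1 of these 2 genes. The nearest other protein-coding gene was PCNT, which encodes the centrosomal protein pericentrin and ends 12796 bp from the DMSO summit. At KDM4A the next protein-coding end was that of PTPRF, a receptor tyrosine phosphatase, at 26220 bp (DMSO). At RAP2A it was that of MBNL2, a splicing regulator, at 39048 bp (DMSO). Neither KDM4A nor RAP2A had another gene start of the promoter table under its entries.

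The promoter windows were then searched, on both strands, for X-box arms. One arm was written as GTTGCC, and the wider form GTTNCC includes it. The KDM4A window held GTTGCC on the minus strand, 146 to 141 bp upstream of the start, and GTTTCC, a match to GTTNCC, on the plus strand 156 to 151 bp upstream. The windows of DIP2A and RAP2A held neither form. GTTGCC was present in 12.2% of all 35116 promoter windows (some genes have several), in 25% of the 76 windows overlapped by a DMSO entry and in 31.2% of the 138 overlapped by a Nutlin-3a entry. GTTNCC was present in 45.4% of all windows and in 48.7% (DMSO) and 52.9% (Nutlin-3a) of the overlapped ones. The KDM4A matches face each other across 4 bases, and the sequence printed above shows them side by side. That gap is wider than the 0 to 3 bases of the X-box consensus searched here. GTTTCC also has a T where that consensus takes A or G, so the pair departs from it in spacing and in bases. An inverted pair of GTTNCC with 0 to 5 bases between its arms, a form written after the KDM4A sequence had been seen, occurred in 0.792% of all windows. It occurred in 1 of the 76 windows overlapped by a DMSO entry, which is that of KDM4A, and in 2 of the 138 overlapped by a Nutlin-3a entry. The centre of the pair lay inside both KDM4A entries, 114 bp (DMSO) and 166 bp (Nutlin-3a) from their summits.

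The DIP2A window held a related arm, GTTGCT, which is the other strand of AGCAAC. It lay 92 to 87 bp upstream of the start and contained the Nutlin-3a summit, while the DMSO summit lay 236 bp from its centre. This form was also chosen after the DIP2A sequence had been seen. It occurred in 12.8% of all windows, in 36 of the 76 overlapped by a DMSO entry (47.4%) and in 49 of the 138 overlapped by a Nutlin-3a entry (35.5%). The windows of KDM4A and RAP2A did not hold it. The whole X-box consensus, with a gap of 0 to 3 bases between its arms, was found in none of the 3 windows and in 1.31% of all windows. In each of the 3 windows the closest stretch differed from a perfect 14-base palindromic X-box at 6 positions, and 94.9% of all windows held a stretch at least as close.

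The CCAAT box was present 3 times in the KDM4A window and 2 times in the DIP2A window, and was absent from the RAP2A window. The KDM4A matches all read CCAAT on the minus strand, with the nearest bases 211, 67 and 34 bp upstream of the start. Those of DIP2A were on the plus strand, 153 to 149 and 114 to 110 bp upstream, the second of them 22 bp from the Nutlin-3a summit. CCAAT occurred in 34.6% of all windows, in 72.4% of those overlapped by a DMSO entry and in 76.1% of those overlapped by a Nutlin-3a entry. KDM4A and DIP2A are part of both overlapped sets. These sets had a median GC content of 66.3% (DMSO) and 66.2% (Nutlin-3a), against 58.7% for all windows, and the part of base composition in the shares was not tested. The windows of all 3 genes lacked the cAMP response element TGACGTCA, its shorter form TGACG and the E-box CACGTG. These occurred in 1.85%, 24.6% and 7.26% of all windows. In the overlapped windows TGACG occurred in 47.4% (DMSO) and 40.6% (Nutlin-3a), TGACGTCA in 1 of 76 and 2 of 138 windows, and CACGTG in 10 of 76 and 18 of 138. The GC box GGGCGG, a site of Sp1-type factors, was present 2 times in the DIP2A window, 9 times in the RAP2A window (some overlapping) and not in the KDM4A window. It occurred in 45.0% of all windows, in 56.3% of the 22199 protein-coding ones and in 75% (DMSO) and 73.9% (Nutlin-3a) of the overlapped ones.

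The 3 promoters also differed in base composition. The GC content of the window was 61% for KDM4A, 76.7% for DIP2A and 82% for RAP2A, and the number of CpG dinucleotides in 300 bases was 21, 43 and 52. The medians over 22199 protein-coding windows were 62.3% and 21. KDM4A thus had an ordinary promoter by this measure, whereas RAP2A exceeded 98.4% of the windows in GC content and DIP2A exceeded 91.0%. The RAP2A window lies 418 bp (DMSO) and 430 bp (Nutlin-3a) beyond the end of its entries, so none of these counts describes the sequence bound there.

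The relatives and partners of the 3 genes had few entries. In all, 61 genes in 6 lists were looked up, and the 3 members were the only ones of them with a summit within 5 kb of a gene end in either list. Across all protein-coding genes this share was 0.764% (DMSO) and 1.08% (Nutlin-3a). A count of 0 among the 58 other genes is near these shares. KDM4A was the only 1 of 23 histone lysine demethylases, and none of 10 writers and readers of methylation at lysine 9 of histone H3 (such as SUV39H1, EHMT2 and SETDB1) had an entry. DIP2A was the only 1 of 4 genes made up of its family and FSTL1. RAP2A was the only 1 of 5 RAP GTPases, which include its close relatives RAP2B and RAP2C. None of 12 RAP exchange factors and GTPase-activating proteins and none of 7 RAP effectors, TNIK, MINK1 and MAP4K4 among them, had an entry. Within 50 kb, KDM6B and FSTL1 were added in both lists, named here after their values were seen. At that distance 2.03% (DMSO) and 3.04% (Nutlin-3a) of all protein-coding genes had an entry, so 2 of the 58 other genes is near the background. The summit inside KDM6B, another Jumonji-domain demethylase, lay 9934 bp from an end of that gene under DMSO, with a fold enrichment of 4.90 there and 6.60 under Nutlin-3a. It was closer to the start of another protein-coding gene of the table, LOC124904106, at 666 bp (DMSO) and 695 bp (Nutlin-3a). The summit at FSTL1, the described ligand of DIP2A, lay inside the gene, 25105 bp from an end in the DMSO list, with a fold enrichment of 4.72 there and 9.28 in the Nutlin-3a list.

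Finally, the genes with the most similar pair of ranks were looked up among 101 pairs of overlapping entries whose Nutlin-3a summit lay within 5 kb of a protein-coding gene end. Similarity was the distance between the rank percentiles by fold enrichment in both lists. KDM4A and RAP2A lay 0.675 percentile points apart and were among each other's 3 closest genes. Both genes were chosen from the 10 highest Nutlin-3a fold enrichments, so their closeness in that list was partly set by the choice. VCP, an ATPase of protein quality control, was closest to both, at 0.427 points from KDM4A and 0.255 points from RAP2A, with ranks of 10 (DMSO) and 9 (Nutlin-3a). TOB2, of the TOB and BTG antiproliferative family, was also among the 3 closest to each, with ranks of 7 and 11. DIP2A had other neighbours. PNRC2, a nuclear receptor coactivator, lay 0.765 points away with ranks of 54 and 2. DNAJB12, a co-chaperone of the endoplasmic reticulum, lay 1.80 points away with ranks of 59 and 1. PTMS lay 3.06 points away with ranks of 50 and 24. DIP2A, PNRC2 and DNAJB12 stood among the first 5 of the Nutlin-3a list and between rank 51 and rank 59 under DMSO. The DMSO entries of these 3 genes and the Nutlin-3a entry of PNRC2 gave no whole-number pileup. Neither did the entries of VCP and TOB2 in either list, so these ranks carry the caveat given above. The ranks come from lists of different length and give no direction of change.

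**Figure D4:**
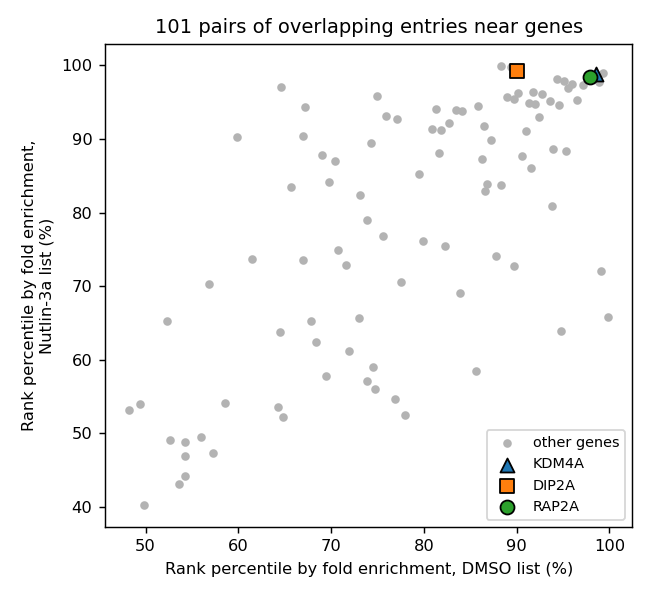
Rank percentile by fold enrichment in the DMSO list (x, %) and the Nutlin-3a list (y, %) for 101 pairs of overlapping entries near a protein-coding gene end, 1 point per pair. KDM4A and RAP2A lie together in the upper right corner, and DIP2A lies to their left because of its DMSO rank of 51.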

How the data were processed

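RFX7 ChIP and input samples of HCT116 cells, 2 of each per treatment, were grouped by their titles. The authors deposited 1 narrowPeak list per treatment, with a fold enrichment (a ratio), a −log10 p, a −log10 q, a score and a summit per entry. The score is 10 times the deposited −log10 q, cut to a whole number, in 503 of 505 DMSO and 621 of 622 Nutlin-3a entries. The submitters' processing notes name genome build hg38, MACS2 2.2.7.1 and bedtools 2.29.2. Peak-calling settings and the pooling of replicates are not given in the sources used here. Fold enrichments are the authors' values and describe or rank entries within a list.

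Pileups were solved from fold enrichment and −log10 p under MACS2's formulas, assumed from its known method. Gene ends came from RefSeq (GRCh38.p14), and starts, strands and promoter sequences from its promoter table, in which all 3 genes had 1 window each. Of the 61 listed genes, 61 matched. Named genes were the members, neighbours within 50 kb, the 3 most similar in rank, and listed genes with a summit within 5 kb. KDM6B, FSTL1 and LOC124904106 fall outside this rule and were named after their values were seen. The members and lists were chosen with earlier results of these data known. Computation used Python 3.11.15, pandas 2.3.3 and scipy 1.17.1, and the scripts were tested on simulated data.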

Additional observations from a re-analysis of the deposited data

How the results depend on the processing

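No paired analysis was possible because the peak lists hold no values per replicate, and for the same reason no replicate could be left out. Of 42 alternative values, 25 stayed within 1.5 times the main value. The number of member entries, 3 per list, was the same at 5, 10 and 100 kb, by the entry midpoint and at −log10 q of at least 10. For the Nutlin-3a list a number of at least 3 was largely set by the choice of the genes. These values are nevertheless counted among the 25. The number of shared pairs stayed at 3 with overlap of 50% of both entries and was 1 with summits within 100 bp. Protein-coding genes with a summit near an end numbered 153 (DMSO) and 216 (Nutlin-3a) at 5 kb, 91 and 130 at 1 kb, and 407 and 609 at 50 kb. At −log10 q of at least 10 the DMSO number was 91. Of the 3 promoter windows, 1 held GTTGCC, and 0 held the palindromic X-box with up to 1 mismatch. The inverted pair and GTTGCT, added after seeing the sequences, each gave 1. Both are counted among the 25, although a value of at least 1 was fixed by how they were written. At 1 kb, RAP2A no longer counted as a gene with an entry.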
